A study of Mus musculus with 2 samples.

Results

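The Sox genes encode transcription factors that share a DNA-binding domain of the high-mobility-group kind, named after the sex-determining gene Sry. The 10 members described here were Sox2, Sox4, Sox5, Sox6, Sox7, Sox9, Sox10, Sox11, Sox17 and Sox18. They were taken by gene symbol, not by any measured value, from the 52550 gene identifiers of the count tables. 9 other Sox genes were kept as a separate list. The cells came from wild-type mouse embryos of the outbred strain CD1 at embryonic day 10 (E10.0), from dissected posterior second heart field, the mesoderm behind the heart that feeds its venous pole, together with the heart tube. The 2 Drop-seq libraries, replicate 1 and replicate 2, were each made from a pool of about 80 embryos and handled on separate days. There was no treated or mutant group, so every comparison below is between cell types within these libraries. A p-value rests on how far the 2 libraries agree over all types in the fit, and does not measure their agreement in a single type.

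Sox proteins bend DNA at short AACAAT-like sequences and usually act together with partner factors, and they are grouped by sequence. Sox2, of the SOXB group, maintains neural progenitors and is needed in the anterior foregut. Sox4 and Sox11, of the SOXC group, are found in many progenitor populations and in newly formed neurons, and loss of either one in mice disturbs the outflow tract of the heart. Sox5 and Sox6 (SOXD) lack a transactivation domain and work beside Sox9 (SOXE) in cartilage. Sox10 (SOXE) is a regulator of migrating neural crest and glia. Sox7, Sox17 and Sox18 (SOXF) act in the endothelium of blood vessels, and Sox17 is also a regulator of early endoderm.

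The 250 bases before the RefSeq start of Sox4, Sox11 and Sox2 are shown first, because the results below set the wide pattern of Sox4 and Sox11 against members held to a few lineages, of which Sox2 is one with a single listed start. The sequences are RefSeq's on build GRCm38.p6, read 5′ to 3′ on the gene's strand. Capitals mark matches, on either strand, to 5 motifs. They are the core promoter motif spelled TATAAA, the GC box with the letters GGGCGG, the element named for its letters CCAAT, the core of Sox binding sites with the letters AACAAT, and an E-box that reads CAGCTG. On the other strand a GC box reads CCGCCC, and the CCAAT element reads ATTGG. The windows are chr13:28953700-28953949 on the minus strand for Sox4, chr12:27342719-27342968 on the minus strand for Sox11 and chr3:34649745-34649994 on the plus strand for Sox2.
Sox4: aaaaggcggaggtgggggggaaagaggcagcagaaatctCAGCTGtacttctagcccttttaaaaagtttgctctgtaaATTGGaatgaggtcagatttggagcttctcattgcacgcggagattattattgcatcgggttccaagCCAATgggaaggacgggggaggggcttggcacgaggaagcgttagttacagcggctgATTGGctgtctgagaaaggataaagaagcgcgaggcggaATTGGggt
Sox11: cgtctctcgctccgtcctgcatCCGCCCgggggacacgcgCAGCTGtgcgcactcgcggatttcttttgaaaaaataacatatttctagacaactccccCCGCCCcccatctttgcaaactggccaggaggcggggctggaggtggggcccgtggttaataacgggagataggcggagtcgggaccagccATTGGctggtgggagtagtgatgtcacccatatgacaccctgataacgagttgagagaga
Sox2: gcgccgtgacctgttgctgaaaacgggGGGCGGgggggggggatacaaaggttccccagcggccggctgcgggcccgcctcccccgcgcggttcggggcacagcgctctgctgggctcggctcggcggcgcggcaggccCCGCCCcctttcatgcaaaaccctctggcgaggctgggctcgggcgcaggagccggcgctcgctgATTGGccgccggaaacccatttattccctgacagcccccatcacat

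An E-box began at -211 in the Sox4 window and at -210 in the Sox11 window, counted back from the RefSeq start, and 13.0% of all 32851 RefSeq windows of this length hold one. Sox4 had CCAAT elements at -171, -104, -47 and -8, Sox11 had one at -60 and Sox2 had one at -46. This element occurs in 33.8% of all windows. GC boxes began at -228 and -151 in Sox11 and at -223 and -111 in Sox2, and 32.7% of all windows hold one. None of the 3 windows held TATAAA, found in 12.4% of all windows, or AACAAT, found in 9.42%. No match overlapped another. The windows were 50.8% (Sox4), 58.0% (Sox11) and 72.0% (Sox2) G or C, where the median window was 52.4%, and they held 11, 17 and 27 CpG pairs against a median of 6. The RefSeq table matched 5 of the 10 members, the other 2 being Sox5 and Sox6; Sox7, Sox9, Sox10, Sox17 and Sox18 had no entry.

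The files held 5000 and 7497 cell barcodes with 11958912 and 14131384 UMIs (unique molecular identifiers, each standing for 1 captured mRNA) in replicates 1 and 2. Requiring 400 genes and no more than 10% of UMIs from mitochondrial genes left 4038 and 4934 cells, with a median of 1364 and 1505 UMIs. No barcode was shared between the kept cells of the libraries. A cell was given a type when at least 3 of that type's 12 marker genes were detected and at least 2 more than for any other type, and no Sox gene was a marker. This placed 1145 and 1368 cells (28.4% and 27.7%), which were deeper (median 3453 and 3399 UMIs) than the cells left unplaced (1050 and 1164). 12 types had at least 20 cells in each library: cardiomyocytes, second heart field (SHF) and splanchnic mesoderm, epicardial cells, endothelial cells, erythroid cells, hepatoblasts, foregut endoderm, surface ectoderm, neural crest and glia, Dlx ectomesenchyme (crest-derived mesenchyme with Dlx genes), neural tube progenitors and neurons. Each name stands for cells that are like that type by these markers. Between 7 (epicardial) and 12 of a type's 12 markers were highest in that type. The dissection thus held SHF mesoderm (281 and 230 cells) and cardiomyocytes (98 and 156 cells) as labelled, and also neural, surface, hepatic and blood cells.

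Levels below are CPM, the UMIs of a gene scaled to the total UMIs of the summed cells of a type in one library, given for replicate 1 and then replicate 2. They are compared between types within a gene, not between genes. A type was tested against the mean log level of the other 11 types with edgeR's quasi-likelihood test, with the library as a block and Benjamini-Hochberg adjustment over all 9558 genes tested. All 10 members passed the filter on low counts, but Sox7, Sox10, Sox17 and Sox18 passed it through the type where they were high, so their calls there are descriptions. Sox6 needed its replicate 1 level in epicardial cells to pass, so its epicardial call is a description too. Over 120 tests of members, 29 calls were higher and 9 lower at an adjusted p under 0.05. Over the same 12 types, all 9558 genes together had 12481 higher and 5823 lower calls. The share of all genes ran from 5.03% (neurons) to 25.8% (erythroid) higher, and from 1.68% (epicardial) to 23.7% (erythroid) lower. The 9 lower calls of members were of Sox4, Sox5, Sox9 and Sox11. The other 6 members had 0 UMIs in more than 1 type, so the fitted size of their log contrast depends on the prior count and is not given. Their level against the other types pooled is given instead, as a ratio with its exact interval and, where the libraries differ by more than 1.5 times, in each library.

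Ectodermal and neural types had between 2 and 4 members called higher. Sox2, Sox4 and Sox11 were higher in neurons (5.03% of all genes tested passed higher there and 2.46% lower). Neural tube progenitors had Sox2 and Sox11 higher (6.37% of genes higher, 3.36% lower). In neural crest and glia 4 members passed, Sox2, Sox4, Sox5 and Sox10 (5.9% higher, 1.98% lower), and in Dlx ectomesenchyme also 4, namely Sox5, Sox9, Sox10 and Sox11 (8.83% higher, 2.44% lower). Surface ectoderm had Sox4, Sox9 and Sox11 higher (7.45% higher, 1.72% lower).

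Endodermal and mesodermal types differed in which members passed. Foregut endoderm had 5 members higher, Sox2, Sox4, Sox9, Sox11 and Sox17 (10.3% of genes higher, 2.52% lower). SHF and splanchnic mesoderm had Sox4 and Sox11 higher (10.7% higher, 2.5% lower). Endothelial cells had the 3 SOXF members higher and Sox11 lower (16.4% higher, 6.06% lower). Epicardial cells had Sox6 and Sox9 higher and Sox11 lower (8.79% higher, 1.68% lower). Cardiomyocytes had Sox6 higher, and Sox4 and Sox11 lower (17.2% higher, 9.19% lower). In hepatoblasts Sox4 was lower (7.8% higher, 3.3% lower). In erythroid cells 4 members were lower, Sox4, Sox5, Sox9 and Sox11, in a type where 25.8% of all genes passed higher and 23.7% lower.

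Sox4 (ENSMUSG00000076431.4, chromosome 13, 28948919 to 28953713, minus strand, GRCm38) was found in all 12 types and was highest in neurons, at 523 and 449 CPM. Foregut endoderm (383 and 406 CPM) and neural crest and glia (343 and 428 CPM) came next and overlapped each other. Surface ectoderm had 284 and 256 CPM, which overlapped SHF and splanchnic mesoderm at 237 and 277 CPM. These 5 types held the 10 highest Sox4 levels of the 24 sums. Endothelial cells stood at 179 and 221 CPM. Neural tube progenitors (169 and 157 CPM), Dlx ectomesenchyme (132 and 188 CPM) and epicardial cells (132 and 159 CPM) overlapped one another, and Dlx ectomesenchyme also overlapped endothelial cells. Hepatoblasts at 94.8 and 119 CPM, cardiomyocytes at 79.1 and 94.7 CPM and erythroid cells at 9.32 and 6.48 CPM closed the order. A transcript annotated on the opposite strand, Gm26735, overlaps Sox4, and reads of the pair cannot be told apart where strand was not used in counting.

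Against the other types, Sox4 was higher in neurons by 1.58 ± 0.19 on the log2 scale (SE, edgeR, adjusted p = 1.29e-10). The same test gave 1.31 ± 0.12 in foregut endoderm (adjusted p = 5.80e-17) and 1.27 ± 0.13 in neural crest and glia (adjusted p = 5.15e-14). These 3 types lay above every other type in both libraries. In SHF and splanchnic mesoderm the log2 difference was 0.61 ± 0.10 (adjusted p = 3.16e-06), and in surface ectoderm 0.61 ± 0.16 (adjusted p = 0.00657). Without the near-empty erythroid cells in the mean, a comparison added after seeing the data, neither passed: the differences were 0.26 (adjusted p = 0.109) in SHF and splanchnic mesoderm and 0.29 (adjusted p = 0.353) in surface ectoderm. The surface ectoderm call was also lost with cells thinned to 1000 UMIs (0.14, adjusted p = 0.959). Sox4 was lower by log2 -0.94 ± 0.16 in cardiomyocytes (adjusted p = 1.77e-06; 0.0796 with thinned cells), -0.68 ± 0.21 in hepatoblasts (adjusted p = 0.0235, lost in 4 of 11 alternatives) and -3.70 ± 0.24 in erythroid cells (adjusted p = 1.78e-25). In endothelial cells the difference of 0.33 did not pass (adjusted p = 0.0547).

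Sox11 (ENSMUSG00000063632.6, chromosome 12, 27334264 to 27342574, minus strand) was also found in all 12 types, and neurons again led, with 1345 and 1018 CPM. Neural tube progenitors (528 and 633 CPM) and SHF and splanchnic mesoderm (558 and 601 CPM) followed and overlapped each other. Surface ectoderm had 471 and 492 CPM. Foregut endoderm (463 and 454 CPM) and Dlx ectomesenchyme (406 and 464 CPM) overlapped below it. Neural crest and glia had 299.7 and 334 CPM and hepatoblasts 297 and 219.7 CPM. Cardiomyocytes (165 and 123 CPM) overlapped both endothelial cells (155 and 156 CPM) and epicardial cells (147 and 128 CPM), and endothelial cells lay above epicardial cells in both libraries. Erythroid cells held 10.3 and 10.2 CPM, the lowest level of Sox11 in both libraries.

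The Sox11 difference was 2.21 ± 0.14 in neurons (log2, SE, edgeR adjusted p = 1.20e-25), 1.12 ± 0.13 in neural tube progenitors (adjusted p = 7.62e-11) and 1.12 ± 0.09 in SHF and splanchnic mesoderm (adjusted p = 2.40e-19). Smaller differences passed in surface ectoderm (0.82 ± 0.13, adjusted p = 1.004e-06), foregut endoderm (0.77 ± 0.11, adjusted p = 1.21e-08) and Dlx ectomesenchyme (0.75 ± 0.10, adjusted p = 1.11e-09). Sox11 was lower in cardiomyocytes (-0.95 ± 0.14, adjusted p = 1.89e-08), endothelial cells (-0.84 ± 0.13, adjusted p = 1.58e-07), epicardial cells (-1.07 ± 0.18, adjusted p = 1.19e-06) and erythroid cells (-4.07 ± 0.21, adjusted p = 4.48e-32). The epicardial call was lost when clusters replaced the marker gates (-0.05, adjusted p = 0.865). Neural crest and glia held place 3 of 12 for Sox4 and place 7 for Sox11, while neural tube progenitors held place 7 for Sox4 and place 2 for Sox11.

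**Figure D1:**
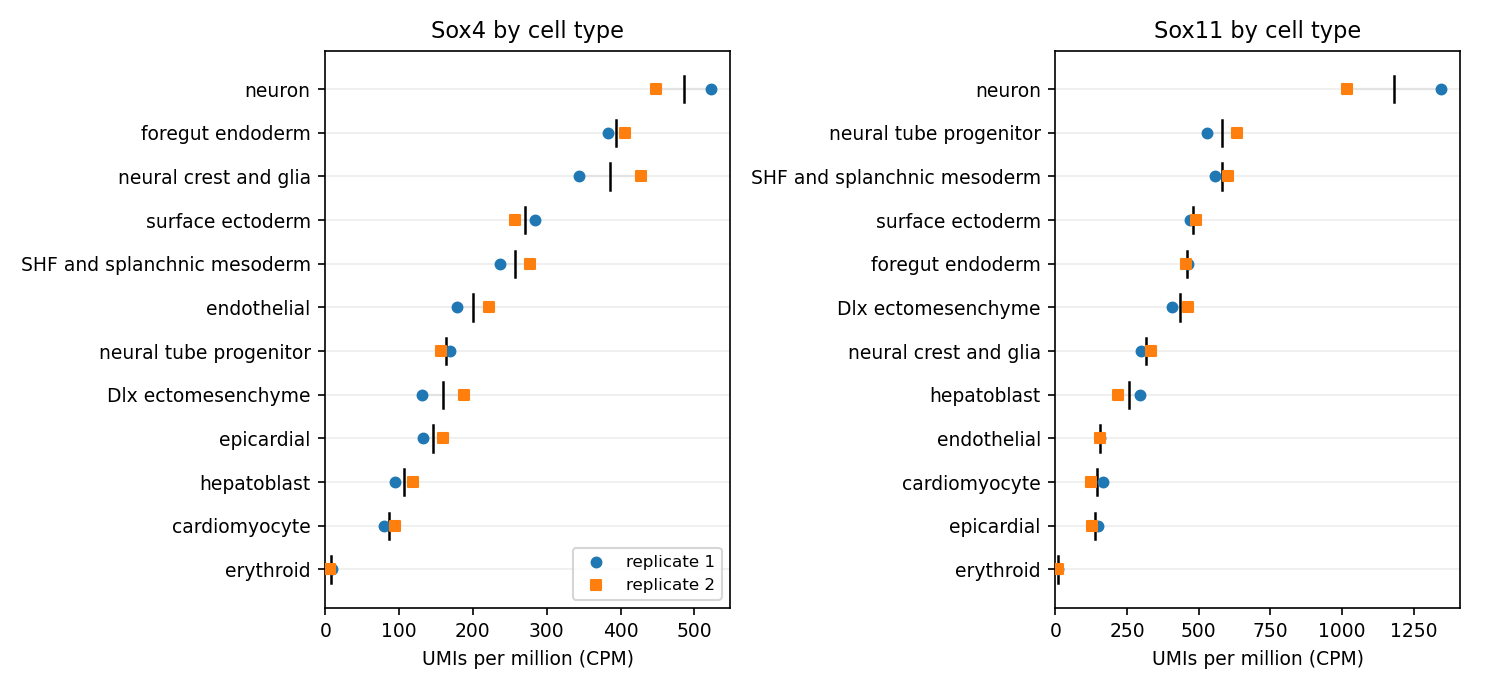
Sox4 and Sox11 in CPM (horizontal axis) in each of the 12 types (vertical axis), circles for replicate 1, squares for replicate 2 and a bar for their mean, with types in the order of the mean. Neurons stand at the top for both genes (523 and 449 CPM of Sox4, 1345 and 1018 CPM of Sox11) and erythroid cells at the bottom.

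3 direct comparisons between neighbouring types were added after seeing the data, within the same fit. Neurons had more Sox4 than neural tube progenitors, by log2 1.54 ± 0.25 (edgeR adjusted p = 4.47e-06), and more Sox11, by 1.00 ± 0.17 (adjusted p = 9.75e-06), where 2.61% of genes passed higher and 2.18% lower. Sox2, which marks dividing neural progenitors, had 9 and 2 UMIs (87.1 and 21.9 CPM) in neurons and 25 and 32 UMIs (125 and 168 CPM) in neural tube progenitors, and this difference of log2 -1.39 ± 0.56 did not pass (adjusted p = 0.156). SHF and splanchnic mesoderm had more Sox11 than cardiomyocytes, by log2 1.89 ± 0.15 (adjusted p = 7.46e-20), and more Sox4, by 1.41 ± 0.18 (adjusted p = 1.33e-10), where 11.1% of genes passed higher and 12.8% lower. Sox6 had 3.39 and 4.43 CPM in SHF and splanchnic mesoderm and 18.1 and 11.05 CPM in cardiomyocytes (log2 -2.02 ± 0.80, adjusted p = 0.0559), and Sox9 did not pass (0.47, adjusted p = 0.430). These paired types share the libraries and the dissection.

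Dlx ectomesenchyme and neural crest and glia differed in 5 members, where 2.03% of genes passed higher and 2.17% lower. The libraries differed in the Dlx genes of Dlx ectomesenchyme, as given above. Sox10 had 7.12 and 3.78 CPM in Dlx ectomesenchyme against 151 and 102 CPM in neural crest and glia, a log2 difference of -4.52 ± 0.60 (edgeR adjusted p = 9.29e-09). Sox10 passed the low-count filter through neural crest and glia, so this call is a description. Sox4 was lower in Dlx ectomesenchyme as well (-1.20 ± 0.16, adjusted p = 3.47e-09), and Sox2 had 0 and 2 UMIs there against 10 and 6 in neural crest and glia (adjusted p = 0.000623). Sox11 (0.51 ± 0.15, adjusted p = 0.0253) and Sox9 (1.31 ± 0.39, adjusted p = 0.0344) were higher in Dlx ectomesenchyme. For Sox9 the levels were 53.4 and 150 CPM in Dlx ectomesenchyme and 45.7 and 39.9 CPM in neural crest and glia, so most of the difference came from replicate 2. Sox5 did not pass (-0.93, adjusted p = 0.451).

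A UMI of Sox4 was found in 43.1% and 39.8% of the cells of the 12 types, and a UMI of Sox11 in 53.8% and 51.3%. Erythroid cells, taken as the background of free RNA, gave 5.13% and 2.84% for Sox4 and 4.49% and 7.80% for Sox11 at median depths of 3556 and 6365 UMIs. Neural crest and glia had the highest Sox4 shares, 75.4% and 78.9%, at 4728 and 4291 UMIs. Neurons, with 1609.5 and 2177 UMIs, had 52.6% and 43.2%. Thinning every cell to 1000 UMIs removed the depth gap and turned this order: 41.4% and 36.7% of neurons and 27.3% and 32.7% of neural crest and glia then had a Sox4 UMI, with 29 and 30 neurons and 55 and 52 crest cells left. Their exact 95% intervals overlapped (23.5 to 61.1% and 19.9 to 56.1% in neurons, 16.1 to 41.0% and 20.3 to 47.1% in neural crest and glia). For Sox11 the thinned shares were 55.2% and 50% in neurons, 39.4% and 41.4% in SHF and splanchnic mesoderm, 9.30% and 11.02% in cardiomyocytes and 0.676% and 1.43% in erythroid cells. All intervals and floors given here cover counting error only.

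**Figure D2:**
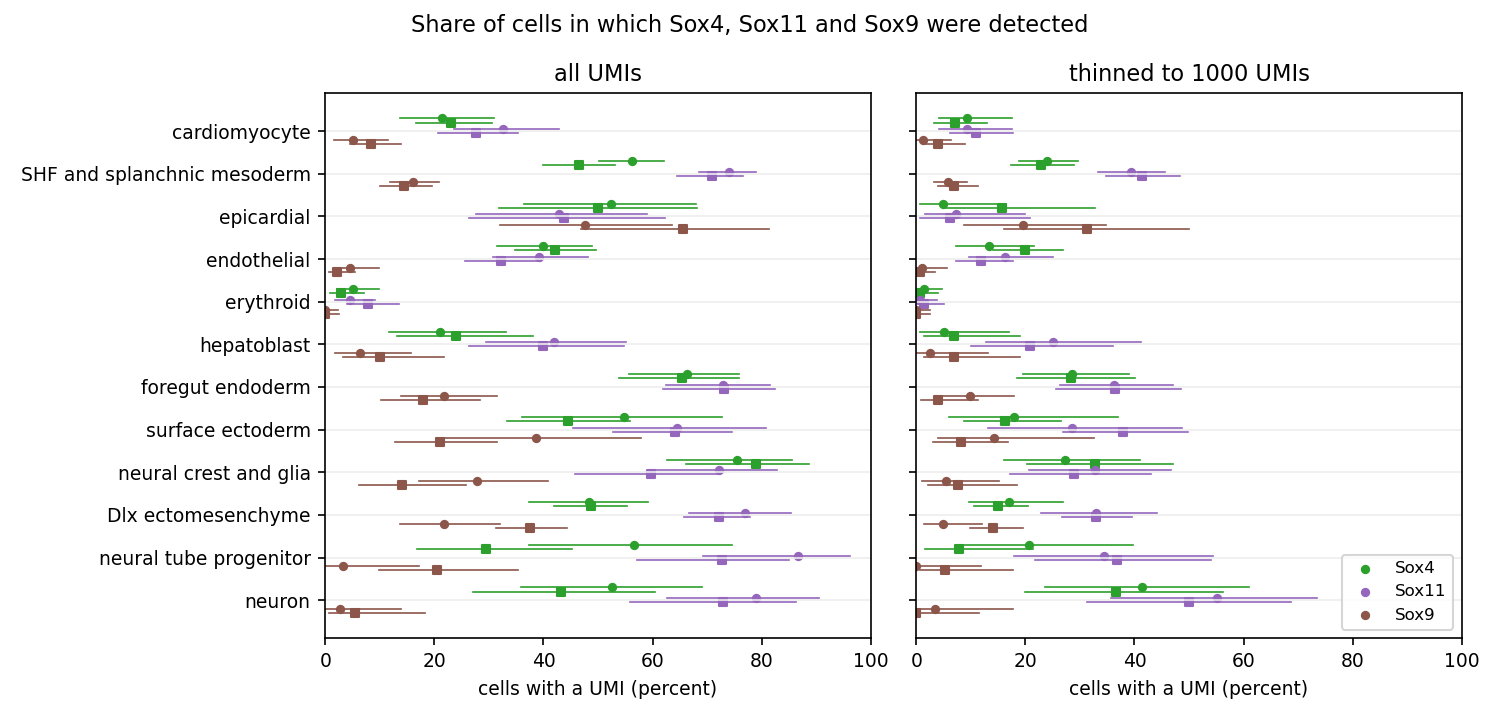
Percent of cells with at least 1 UMI of Sox4, Sox11 or Sox9 by type, circles for replicate 1, squares for replicate 2 and bars for exact 95% binomial intervals, with all UMIs and with cells thinned to 1000 UMIs. At equal depth neurons lead for Sox4 (41.4% and 36.7%) and epicardial cells for Sox9 (19.5% and 31.2%), while erythroid cells stay at or below 1.43% for all 3 genes.

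In SHF and splanchnic mesoderm 131 of 281 cells in replicate 1 and 84 of 230 in replicate 2 had a UMI of both Sox4 and Sox11, and 235 and 186 had at least one. In neurons 18 of 38 and 15 of 37 had both. Over the 24 sums the log2 levels of the pair had a Pearson correlation of 0.875, a description over sums that share libraries and depth. Barcodes with only 10 to 200 UMIs, read as a guide to free RNA, numbered 117 and 333. Whether these barcodes hold free RNA or shallow cells was not tested. They held 5 and 18 UMIs of Sox4 (574 and 324 CPM) and 4 and 45 UMIs of Sox11 (459 and 811 CPM), while 7 of the other 8 members had at most 1 UMI there and Sox9 had 1 and 2. The part of free RNA in the levels of Sox4 and Sox11 was not tested. In erythroid cells it can amount to no more than the 6.48 to 10.3 CPM seen there.

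Breadth was summarised by tau, which is 0 for a gene at 1 level in all types and 1 for a gene in a single type. Sox4 had the lowest tau of the members, 0.592, followed by Sox11 at 0.726. The others had 0.780 (Sox5), 0.819 (Sox6), 0.868 (Sox9), 0.904 (Sox2), 0.980 (Sox17), 0.994 (Sox10), 0.998 (Sox7) and 0.999 (Sox18). The median of 6387 genes that reached 50 CPM in a type was 0.409, with quartiles of 0.300 and 0.604. Both Sox4 and Sox11 thus lay above the median, Sox4 just below the upper quartile value and Sox11 above it. Without erythroid cells, the highest type had 5.59 times the level of the lowest for Sox4 and 8.56 times for Sox11. Sox11 exceeded 100 CPM in both libraries in 11 types and Sox4 in 9.

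Sox2 (ENSMUSG00000074637.7, chromosome 3, 34650405 to 34652461, plus strand) was concentrated in neural tube progenitors and foregut endoderm. It lies within the long noncoding transcript Sox2ot on the same strand, so shared reads cannot be told apart. Neural tube progenitors had 25 and 32 UMIs (125 and 168 CPM), 17.1 times the level of the other types pooled (exact 95% interval 12.1 to 23.8, edgeR adjusted p = 1.36e-19), with 13.3 in replicate 1 and 21.7 in replicate 2. Foregut endoderm had 34 and 32 UMIs (62.0 and 77.7 CPM; ratio 8.42, 6.05 to 11.7, adjusted p = 8.96e-16). Both types lay above all others except that replicate 1 of neurons, at 87.1 CPM, overlapped foregut endoderm. Neurons held 9 and 2 UMIs (ratio 4.64, 2.27 to 8.55, adjusted p = 1.18e-05), with a ratio of 7.33 in replicate 1 and 1.76 in replicate 2. Neural crest and glia held 10 and 6 UMIs at 22.9 and 21.8 CPM (ratio 1.83, 1.02 to 3.07, adjusted p = 0.000300). Epicardial, endothelial and erythroid cells had 0 UMIs, and the other 5 types 1 to 3.

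Inside foregut endoderm Sox2 differed with Nkx2-1, the factor that marks the prospective lung and thyroid. Cells with a Nkx2-1 UMI (37 and 22) held 2 and 0 UMIs of Sox2 (10.1 and 0 CPM), against 32 and 32 UMIs (91.5 and 98.6 CPM) in the 55 and 56 cells without one. The groups did not overlap, and the difference passed (edgeR adjusted p = 0.0182), where 0.161% of 8676 genes passed lower and 0.138% higher. It was lost with DESeq2 (adjusted p = 0.385) and without the library block (adjusted p = 0.162). Median depths were 3808 and 3238 UMIs with Nkx2-1 and 3662 and 4328.5 without, so the cells with Nkx2-1 were the deeper ones in replicate 1 and the shallower ones in replicate 2. The other members did not pass in this split. Sox17 had 0 and 0 UMIs with Nkx2-1 and 21 and 3 without (adjusted p = 0.220), Sox11 302 and 390 CPM with and 555 and 471 CPM without (adjusted p = 0.127), and Sox9 101 and 207 CPM with and 77.2 and 46.2 CPM without (adjusted p = 0.686). Sox4 had 292 and 333 CPM with Nkx2-1 and 435 and 425 CPM without (adjusted p = 0.476). For these 4 members the 2 groups did not overlap either.

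**Figure D3:**
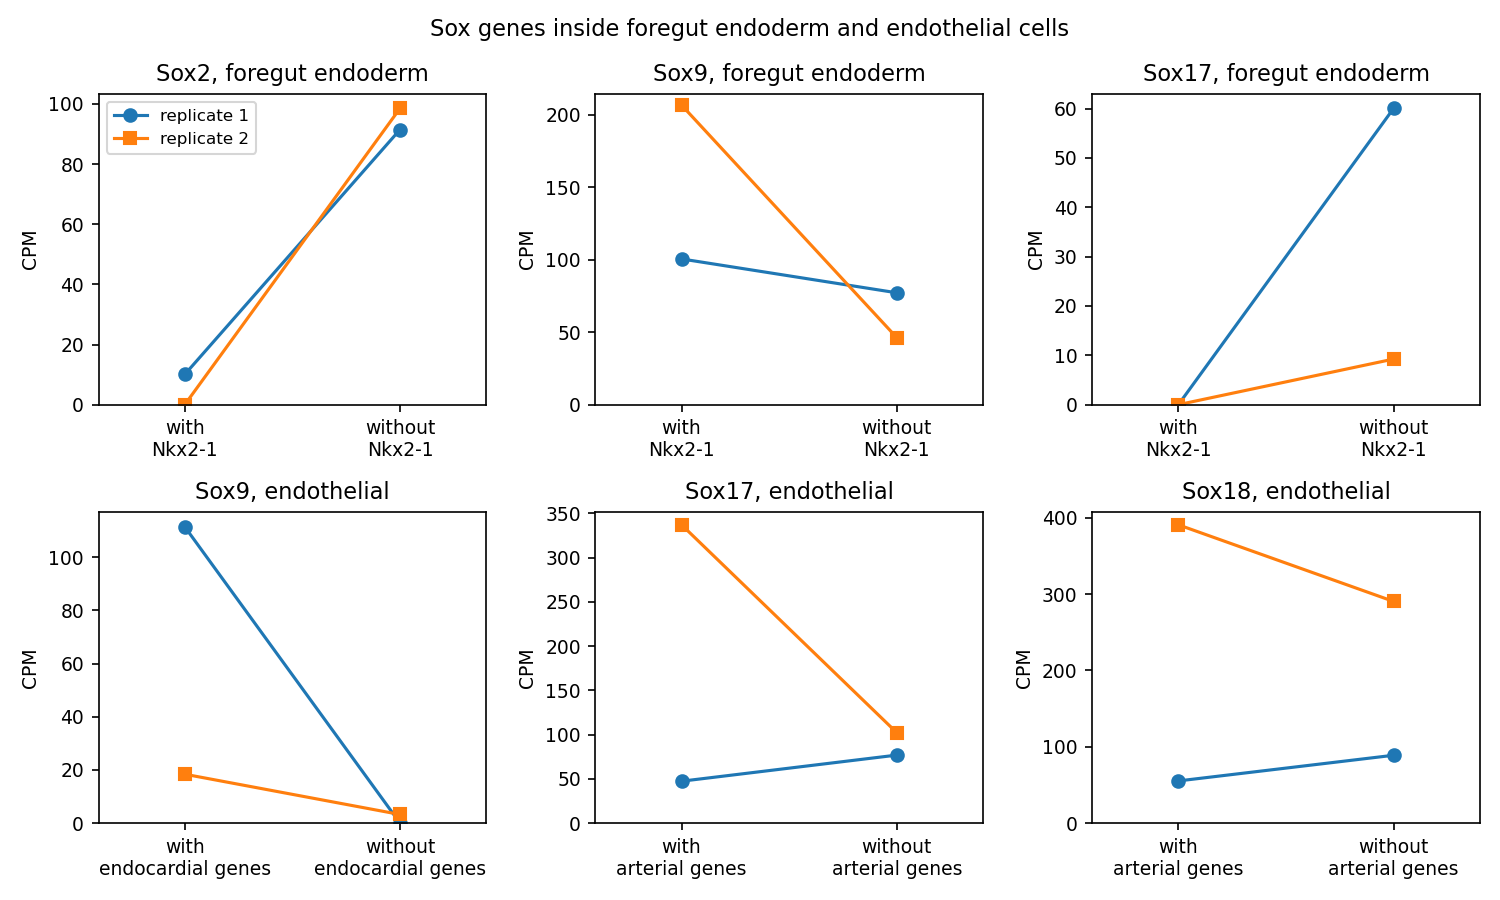
CPM of a member in cells with (left) and without (right) a UMI of the splitting genes, circles for replicate 1 and squares for replicate 2. Sox2 in foregut endoderm stands at 10.1 and 0 CPM with Nkx2-1 and at 91.5 and 98.6 CPM without, and the high value of Sox9 in endothelial cells with endocardial genes is that of replicate 1 (111 CPM).

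Sox9 (ENSMUSG00000000567.5, chromosome 11, 112782224 to 112787760, plus strand) was highest in epicardial cells, the outer layer of the heart. They held 109 and 90 UMIs (342 and 463 CPM), 7.13 times the other types pooled (6.05 to 8.37, edgeR adjusted p = 8.93e-23). A Sox9 UMI was found in 20 of 42 and 21 of 32 of these cells, and no cell held more than 23 of the UMIs. Every other type lay below both epicardial values, and the call held in all 11 alternatives tried. Surface ectoderm had 187 and 91.6 CPM (ratio 1.80, 1.34 to 2.37, adjusted p = 0.000306), Dlx ectomesenchyme 53.4 and 150 CPM (ratio 2.06, 1.76 to 2.40, adjusted p = 1.23e-06) and foregut endoderm 85.7 and 80.1 CPM (ratio 1.24, 0.975 to 1.57, adjusted p = 0.00506). Dlx ectomesenchyme overlapped both others, and surface ectoderm lay above foregut endoderm. The libraries differed in the first 2 of these: the ratio was 3.23 in replicate 1 and 1.23 in replicate 2 for surface ectoderm, and 0.868 in replicate 1 and 2.69 in replicate 2 for Dlx ectomesenchyme. The calls were lost in 4 of the 11 alternatives for surface ectoderm, 1 for Dlx ectomesenchyme and 5 for foregut endoderm. SHF and splanchnic mesoderm had 56.3 and 55.4 CPM and neural crest and glia 45.7 and 39.9 CPM, and neither passed (adjusted p = 0.202 and 0.772).

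Neural tube progenitors had 4.99 and 78.5 CPM, cardiomyocytes 20.4 and 50.5 CPM, hepatoblasts 16.5 and 28.7 CPM and neurons 19.4 and 21.9 CPM. Erythroid cells had 0 UMIs in both libraries and were called lower (adjusted p = 3.06e-10). Endothelial cells had 71.9 and 11.1 CPM, and 26 of the 39 UMIs of replicate 1 came from 1 cell. Split by Npr3 or Nfatc1, genes of the endocardium that lines the heart, endothelial cells with either gene (50 and 69) had 39 and 6 Sox9 UMIs (111 and 18.4 CPM), against 0 and 1 (0 and 3.26 CPM) in the 80 and 114 cells without. That difference passed (edgeR adjusted p = 0.0144), where 0.22% of 8654 genes passed higher and 0.0347% lower, but it was lost in 5 of 9 alternatives, DESeq2 and the fit without the library block among them. The cells with these genes were also deeper, with medians of 5586.5 and 3731 UMIs against 1466.5 and 1972 UMIs in cells without. With cells thinned to 1000 UMIs, which left 21 and 28 cells with and 77 and 133 without, the difference was 1.42 on the log2 scale and did not pass (edgeR adjusted p = 0.954).

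Sox10 (ENSMUSG00000033006, chromosome 15, 79154908 to 79165240, minus strand) was nearly confined to neural crest and glia in these 12 types. They held 66 and 28 UMIs (151 and 102 CPM), 90.4% of the Sox10 UMIs of the 12 types and 153 times the level of the others pooled (79.9 to 330.5), with 213 in replicate 1 and 101.5 in replicate 2. The call was lost with DESeq2 (adjusted p = 0.178). 30 of 61 and 16 of 57 of these cells had a UMI. Dlx ectomesenchyme had 4 and 5 UMIs (7.12 and 3.78 CPM), called higher by edgeR (adjusted p = 0.0045) but not by DESeq2 (adjusted p = 0.809). This call is against a mean log level over types of which 9 held 0 UMIs. Against the other types pooled, neural crest and glia among them, Dlx ectomesenchyme had a ratio of 0.527 (0.234 to 1.04). Epicardial cells had 1 UMI and the other 9 types 0. A count of 0 allows up to 2.04 CPM in the deepest of these sums and 32.8 CPM in the shallowest. Sox5 and Sox9 UMIs occurred in part of the same cells: of the crest cells with Sox10, 10 of 30 and 4 of 16 had Sox5, and 11 of 30 and 3 of 16 had Sox9.

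Sox5 (ENSMUSG00000041540.16, chromosome 6, 143828425 to 144781977, minus strand) was highest in neural crest and glia, at 48.0 and 39.9 CPM (21 and 11 UMIs; ratio 4.67, 3.05 to 6.96, edgeR adjusted p = 7.86e-06). Dlx ectomesenchyme followed with 23.1 and 21.9 CPM (13 and 29 UMIs; ratio 2.29, 1.56 to 3.31, adjusted p = 0.00309, lost in 2 of 10 alternatives). Neural crest and glia overlapped no other type in this order. Epicardial cells had 18.8 and 25.7 CPM and did not pass (adjusted p = 0.0966), and hepatoblasts had 28.8 and 9.55 CPM. SHF and splanchnic mesoderm had 22 UMIs in replicate 1 and 2 in replicate 2 (14.9 and 2.22 CPM). Erythroid cells had none in either library and were called lower (adjusted p = 0.00168), a call lost in 2 of 9 alternatives. The Sox5 locus spans several noncoding genes, of which Sox5it lies on the same strand and Sox5os genes on the other, all with 0 UMIs here.

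Sox6 (ENSMUSG00000051910.13, chromosome 7, 115470872 to 116038796, minus strand) was highest in epicardial cells, with 19 and 4 UMIs (59.6 and 20.6 CPM; ratio 8.16, 4.84 to 13.3, edgeR adjusted p = 1.84e-05), a ratio of 10.4 in replicate 1 and 3.90 in replicate 2. Surface ectoderm had 29.9 and 12.2 CPM, which overlapped it and did not pass (adjusted p = 0.100). Sox6 needed its replicate 1 epicardial level to pass the low-count filter, so the epicardial call is a description. Cardiomyocytes, where mouse Sox6 is known to act in heart muscle, held 8 and 7 UMIs (18.1 and 11.05 CPM; ratio 2.15, 1.15 to 3.79, adjusted p = 0.0281), and this call was lost in 4 of 10 alternatives. Neurons had 19.4 and 10.9 CPM from 3 UMIs. Erythroid cells and hepatoblasts had 0 UMIs. In the epicardial cells Sox6 and Sox9 UMIs met in 9 of 14 and 3 of 4 of the cells with Sox6.

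Sox7 (ENSMUSG00000063060.6, chromosome 14, 63943673 to 63950732, plus strand), Sox17 (ENSMUSG00000025902.13, chromosome 1, 4490931 to 4497354, minus strand) and Sox18 (ENSMUSG00000046470.5, chromosome 2, 181669836 to 181671640, minus strand) were endothelial. Endothelial cells had 35 and 51 Sox7 UMIs (64.5 and 80.6 CPM), against 2 UMIs in all other types together, a ratio of 409 with an interval of 109.8 to 3429, where both UMIs elsewhere were in replicate 2 (ratio 227). For Sox18 the endothelial counts were 44 and 210 UMIs (81.1 and 332 CPM), against 3 elsewhere (ratio 805, 272 to 3928; 449 in replicate 1 and 935 in replicate 2). For Sox17 they were 38 and 126 UMIs (70.0 and 199 CPM), against 30 elsewhere (ratio 52.0, 35.0 to 79.5; 16.9 in replicate 1 and 160.4 in replicate 2). Endothelial cells lay above every other type in both libraries for each of the 3 genes. edgeR's adjusted p was 1.13e-20 for Sox7, 1.70e-27 for Sox17 and 1.41e-37 for Sox18, while DESeq2 gave 0.394, 0.438 and 0.326. All 3 genes passed the low-count filter through the endothelial sums, so these calls are descriptions. Of the 11 other types, 9 held no UMI of Sox7, 7 none of Sox17 and 9 none of Sox18.

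Sox17 and Sox18 were higher in replicate 2 than in replicate 1 of the endothelial cells, and Sox7 less so. A UMI of Sox7 was found in 25 of 130 and 36 of 183 endothelial cells, of Sox17 in 27 and 56, and of Sox18 in 29 and 94. At least 1 of the 3 was found in 57 of 130 and 117 of 183 cells, at least 2 in 20 and 56, and all 3 in 4 and 13. The libraries also differed in arterial genes: 22 of 130 and 69 of 183 endothelial cells had a UMI of Gja4, Gja5, Dll4 or Hey1, and the gap-junction gene Gja4 had 46.1 and 305 CPM. The part of this difference between the libraries in the Sox17 and Sox18 levels was not tested. Within endothelial cells, those with an arterial gene had 47.4 and 337 CPM of Sox17 against 76.9 and 102 CPM in those without, which overlapped and did not pass (edgeR adjusted p = 0.317). Sox18 had 55.3 and 391 CPM with and 88.9 and 290.3 CPM without an arterial gene (adjusted p = 0.969). At an unadjusted p under 0.05, 4 members differed in this split (Sox4, Sox6, Sox9 and Sox17), and after adjustment edgeR and DESeq2 both called none, where 0.64% of 9065 genes passed higher and 0.485% lower.

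Sox17 also had 21 and 3 UMIs in foregut endoderm (38.3 and 7.29 CPM), from 5 and 2 cells, and the call there (edgeR adjusted p = 3.10e-08) was lost with DESeq2. These counts rest on 7 cells, and the ratio to the other types pooled, 1.67 (1.04 to 2.58), was 5.29 in replicate 1 and 0.328 in replicate 2. In SHF and splanchnic mesoderm a split by Barx1 or Nkx6-1, genes of foregut mesenchyme, gave Sox11 levels of 554 and 656 CPM in the 156 and 102 cells with, and 565 and 537 CPM in the 125 and 128 cells without. Sox4 had 226 and 289 CPM with and 254 and 263 CPM without. Both genes overlapped between the groups. edgeR and DESeq2 called no member in this split, and 0 had an unadjusted p under 0.05, where 0.0312% of 9618 genes passed higher and 0.0936% lower.

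**Figure D4:**
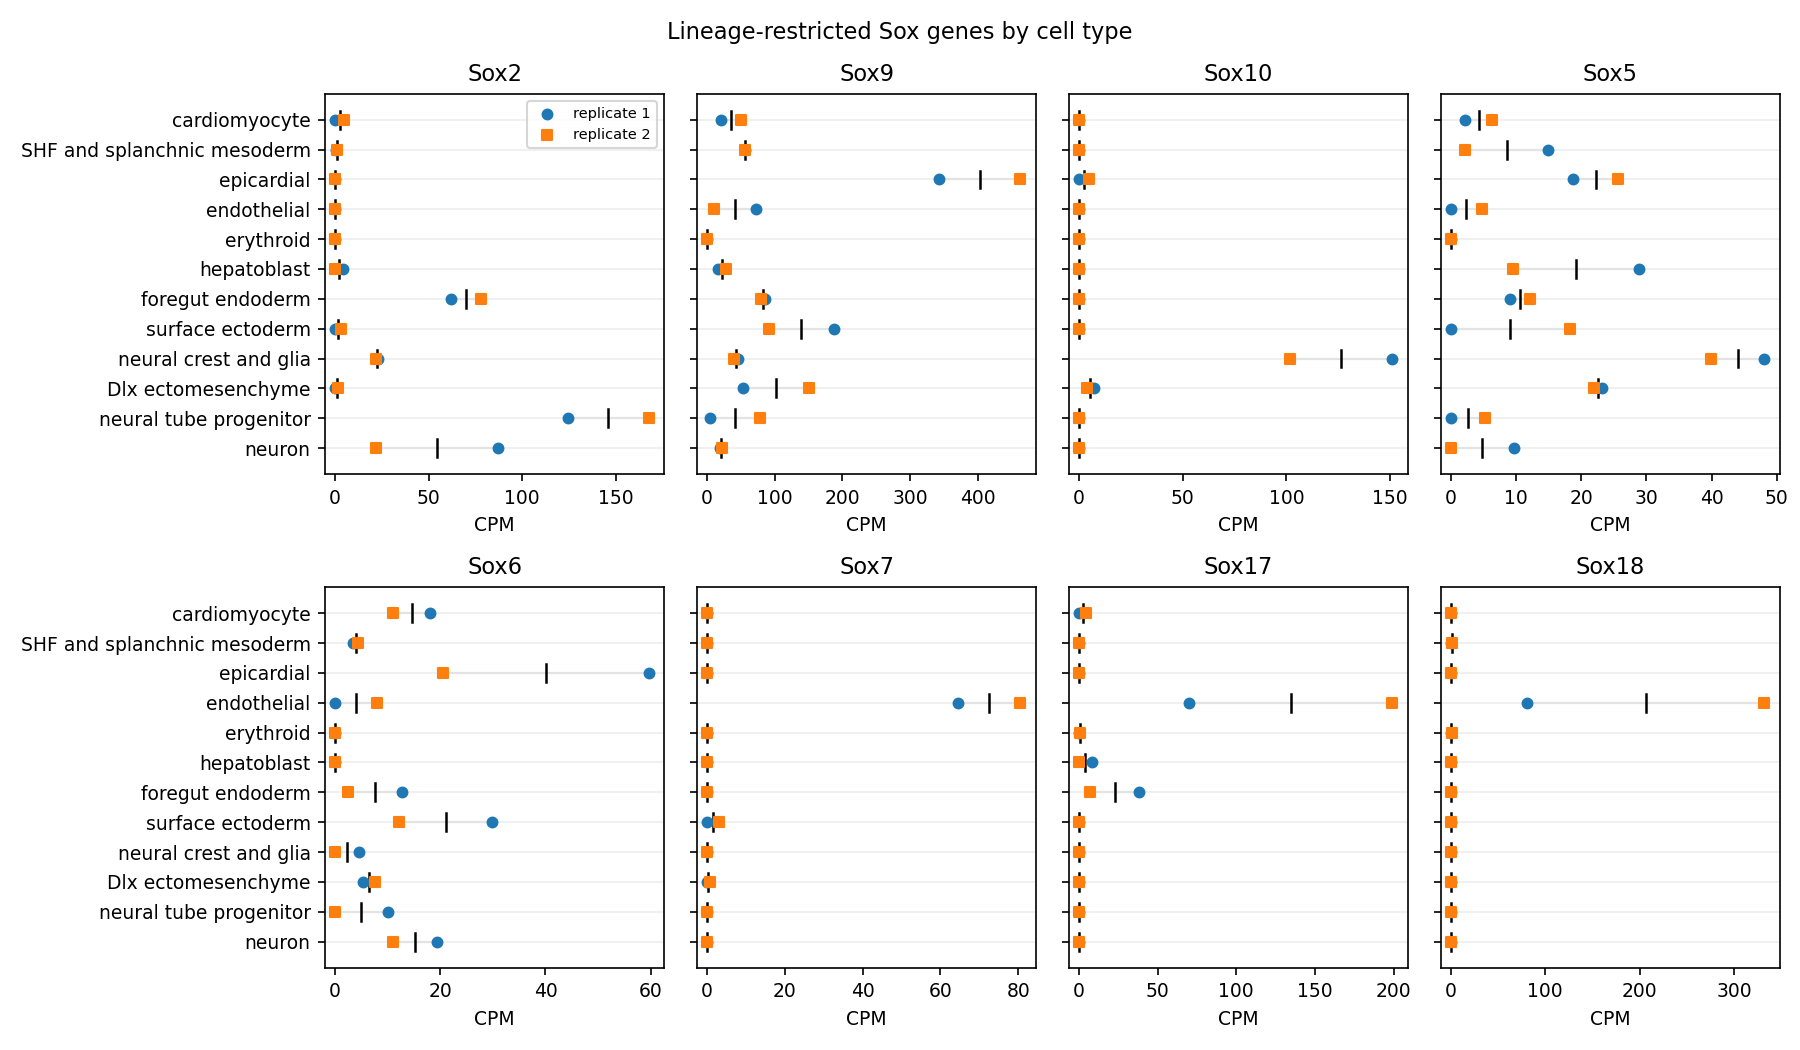
CPM of the 8 lineage members (Sox2, Sox9, Sox10, Sox5, Sox6, Sox7, Sox17 and Sox18) in the 12 types, 1 panel a gene, circles for replicate 1 and squares for replicate 2. Sox10 stands out in neural crest and glia (151 and 102 CPM), Sox7, Sox17 and Sox18 in endothelial cells, and Sox9 in epicardial cells (342 and 463 CPM).

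The genes whose log2 levels ran closest to each member over the 24 sums were taken from 6105 candidates by Pearson's r, as a description. For Sox4 they were Dbn1, which encodes the actin-binding protein drebrin (0.939), Calm2, a calmodulin gene (0.937), and Pcbp4 (0.917). For Sox11 they were Igf2bp1 (0.92999) and Mex3a (0.926), both RNA-binding proteins, and Auts2 (0.925). Sox2 ran closest to Zbtb16 (0.885), Celsr2 (0.871) and Rprm (0.871). The values were lower for Sox9 (Rhou 0.813, Stk26 0.808 and Decr1 0.790), Sox5 (Serpinf1 0.743, Nipa2 0.702 and Zfp771 0.699) and Sox6 (Tead1 0.758, Zmiz1 0.733 and Cdkn1b 0.733). Members held to 1 type have their r set by the 2 sums of that type: Sox7 with Cd34 (0.997), Ctla2a (0.996) and Clec1b (0.994), Sox18 with Myct1 (0.994), Gimap4 (0.990) and Clec1b (0.986), Sox17 with Calcrl (0.926), Gimap4 (0.913) and Arhgef15 (0.912), and Sox10 with Phactr1 (0.935), Camk2b (0.909) and Car12 (0.831). Among the members themselves r was 0.977 for Sox7 and Sox18, 0.890 for Sox17 and Sox18, 0.874 for Sox7 and Sox17, 0.645 for Sox5 and Sox10, 0.519 for Sox6 and Sox9 and 0.506 for Sox2 and Sox11.

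Genes that earlier work links to each group of Sox factors were read as lists. Of 6 genes linked to SOXC factors, all tested, 4 were higher in neurons: Tead2, a DNA-binding factor of the Hippo pathway (484 and 438 CPM), Dbn1 (319 and 339 CPM, log2 1.48 ± 0.24, edgeR adjusted p = 1.47e-06), Stmn1, which destabilises microtubules, and Marcksl1 (1064 and 1488 CPM). The median log2 difference of the 6 was 0.80, where the median of all genes tested was -0.086 and 5.03% of all genes passed higher. The same 4 genes were higher in SHF and splanchnic mesoderm (median of the 6 genes 0.62, of all genes 0.066), where 10.7% of all genes passed higher. In neurons and SHF the other 2, Nrp1 and Ccnd1, did not pass. Cardiomyocytes had 2 of the 6 higher (Nrp1 and Tead2) and 3 lower (Ccnd1, Marcksl1 and Stmn1). In that type 17.2% of all genes passed higher and 9.19% lower, and the list median was -0.27 against 0.024 for all genes. Erythroid cells had all 6 lower (median -3.72, of all genes -0.097), where 23.7% of all genes passed lower. Endothelial cells, where Sox11 was lower, had 3 of the 6 higher (Dbn1, Marcksl1 and Nrp1) and 1 lower (Stmn1). The endothelial median was 0.31 (all genes 0.022), where 16.4% of all genes passed higher and 6.06% lower. Epicardial cells had Ccnd1 and Nrp1 higher and none lower, where 8.79% of all genes passed higher and 1.68% lower.

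The list of vessel genes linked to SOXF factors had 10 genes, of which 6 were tested. Endothelial cells had 4 of these higher: Efnb2, an arterial ephrin (62.7 and 142 CPM), the gap-junction genes Gja4 (46.1 and 305 CPM) and Gja5 (9.21 and 88.5 CPM), and Unc5b (18.4 and 36.3 CPM), with a median of 2.003 against 0.022 for all genes. Vcam1 had 0 UMIs there, and cardiomyocytes also had 4 of the 6 higher (Gja5, Prox1, Unc5b and Vcam1). The share of all genes that passed higher was 16.4% in endothelial cells and 17.2% in cardiomyocytes. Of 8 genes linked to SOX10, 3 were tested. Ret, the receptor of enteric precursors, was higher in neural crest and glia (130.4 and 76.2 CPM, edgeR adjusted p = 1.55e-19) and also in neurons (adjusted p = 0.00311). In neural crest and glia 5.9% of all genes passed higher. Mbp did not pass there and was higher in foregut endoderm and surface ectoderm, both with 0 Sox10 UMIs. Of 6 genes linked to SOX2, 5 were tested, and neural tube progenitors had Nes, an intermediate filament of progenitors (673 and 497 CPM, log2 2.70 ± 0.16), and Notch1 (69.8 and 41.9 CPM) higher, with a list median of 1.33 and an overall one of 0.0079. Endothelial cells, with 0 Sox2 UMIs, also had Nes and Notch1 higher and 1 of the 5 lower. Foregut endoderm had 2 of the 5 higher and 1, Nes, lower, where 10.3% of all genes passed higher and 2.52% lower. In neural tube progenitors 6.37% of all genes passed higher.

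Of 10 cartilage genes linked to Sox9, Sox5 and Sox6, 4 were tested. In epicardial cells, where Sox9 and Sox6 were highest, 1 of the 4 was higher, Hapln1, a hyaluronan link protein (436 and 252 CPM, log2 4.07 ± 0.24), and the list median was -0.55 (all genes 0.0041). Dlx ectomesenchyme had the collagen genes Col2a1 (42.7 and 70.4 CPM) and Col9a1 (17.8 and 63.6 CPM) higher (median 0.82, all genes 0.073). Cardiomyocytes had Col2a1 at 163 and 361 CPM, higher together with Col9a1 and Col9a2 (median 2.46, all genes 0.024), in cells where Sox9 stood at 20.4 and 50.5 CPM. The share of all genes that passed higher was 8.79% in epicardial cells, 8.83% in Dlx ectomesenchyme and 17.2% in cardiomyocytes. Of the 9 other Sox genes 3 were tested. Sox8, of the same group as Sox9 and Sox10, was higher in neural crest and glia (57.2 and 39.9 CPM) and in Dlx ectomesenchyme (3.56 and 12.9 CPM). Sox3, of the group of Sox2, was higher in neural tube progenitors (34.9 and 26.2 CPM). These levels of Sox8 in neural crest and glia and of Sox3 were enough to pass the low-count filter. The calls of Sox8 and Sox3 in those types are therefore descriptions. Sox12, the third SOXC gene, was higher in SHF and splanchnic mesoderm (56.3 and 67.6 CPM, log2 0.75 ± 0.20, edgeR adjusted p = 0.00583) and lower in erythroid cells. The 3 genes had a median of 0.95 in neural crest and glia (all genes 0.052) and 0.75 in SHF and splanchnic mesoderm.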

How the data were processed

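Drop-seq profiled polyadenylated RNA of single cells in 2 libraries of pooled CD1 embryos, each a biological replicate handled on its own day per the labels' protocols. The authors deposited raw UMI counts per gene and barcode; build mm10 and Scanpy are named, with no version, per the submitters' processing notes, and the aligner and counter were not given in the sources used here. From these counts, cells of 400 or more genes with no more than 10% of UMIs from mitochondrial genes were kept (4038 and 4934), and 12 types were gated as described above. Gate markers were left out of the genes tested but kept in library sizes. A doublet caller (Scrublet, in Scanpy 1.11.5) marked 0 and 1 cells by its own threshold and so did not work here. The highest 5% of its scores (174 and 191 cells) were removed as an alternative instead.

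Counts were summed per library and type and tested across all genes with edgeR 4.0.16 (limma 3.58.1, R 4.3.3; TMM, filterByExpr, quasi-likelihood, Benjamini-Hochberg), with 24 sums and 11 residual degrees of freedom. The library was a block because each pool of embryos supplied all types of a library: library deviations correlated by 0.165 to 0.630 over all 66 pairs of types. Gene totals differed between libraries beyond counting noise (chi-square of 22.7 per degree of freedom). DESeq2 1.42.0 was an alternative. Scripts ran in Python 3.11.15 with NumPy 2.4.6 and SciPy 1.17.1 and were tested on simulated counts. Genes running like a member were the 3 with the highest Pearson r of log2(CPM + 10), and up to 4 genes of a list were named by adjusted p. Annotation is GENCODE M21 (99.7% of identifiers matched). The members, lists, gates and splits were chosen with earlier results of these data known. A split of cardiomyocytes by Myl2 held 8 and 22 cells with the gene and was not tested. 1 listed gene is not reported here.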

Additional observations from a re-analysis of the deposited data

Results flagged for a closer look

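Sox genes also had UMIs in cells outside every comparison above. Pharyngeal mesoderm (16 and 40 cells) and paraxial mesoderm (18 and 11 cells) had fewer than 20 cells in a library and were left out of the tests. An observed count of 0 in a library allows up to 3 UMIs. Each count below lay above that limit in both libraries, except Sox9 in pharyngeal mesoderm, which stood at it in replicate 1 (3 UMIs). In pharyngeal mesoderm, the mesoderm with Tbx1, Msc and Tcf21, both libraries together held 66 UMIs of Sox4, 25 of Sox9 and 121 of Sox11. The levels were 279.7 and 210.4 CPM for Sox4, 36.5 and 108 CPM for Sox9 and 584 and 357 CPM for Sox11. In paraxial mesoderm the counts were 20 UMIs of Sox4, 17 of Sox9 and 56 of Sox11, at 119.8 and 134 CPM, 76.2 and 149 CPM, and 468 and 194 CPM.

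Noncoding transcripts that overlap Sox genes were detected over all kept cells. Sox2ot, which spans Sox2 on the same strand, had 87 UMIs, and Sox6os, on the strand opposite Sox6, had 13. They were not used in any comparison, and none of these values was tested.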

How the results depend on the processing

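Of 40 calls of members (38 between types and 2 within a type), 21 held in every alternative in which they could be tested, and none changed direction. DESeq2 moved the 29 higher calls to 18. With cells thinned to 1000 UMIs only 36 of the 120 tests between types could be run, and over these 15 higher calls became 12 and 8 lower calls became 6. Lower calls of members numbered between 6 and 11 over the alternatives, not always the same calls. The main fit had 9 over all tests, 8 over those run with thinned cells and 5 over those without erythroid cells. Only 24 of the 40 calls could be tested with thinned cells, and 18 of these held. Over all genes, the 12481 higher and 5823 lower calls became 2684 and 1068 with thinned cells, where 3255 genes passed the low-count filter against 9558 before. They became 8060 and 3161 without the replicate block. Leaving out erythroid cells, added after seeing the data, gave 8117 and 3509 (10018 and 3555 before, over the same 11 types). For members, 29 higher calls became 24 and 5 lower calls became 8 there. Of the 34 member calls that could be tested without erythroid cells, 5 were lost. Clusters in place of gates, which covered 11 of the 12 types, gave 9165 lower (5502 before, over the same types). The 2 member calls within a type fell to 0 with thinned cells, where Sox9 lost its call and Sox2 was not tested, with DESeq2 and with no replicate block, and to 1 with gates of at least 2 markers and with the highest doublet scores removed. All-gene calls within types, 162, became 8 (thinned), 65 (DESeq2), 56 (at least 4 markers), 49 (doublets removed) and 9 (no replicate block). The split by arterial genes was not run with thinned cells, with at least 4 markers or with doublets removed, nor that by Nkx2-1 with thinned cells. Over the splits run, 8 stood against 34 before (thinned), and 56 (at least 4 markers) and 49 (doublets removed) against 60. The thinned splits tested 2932 genes (endocardial genes) and 3121 genes (foregut mesenchyme genes), against 8654 and 9618 before. The lowest tau of a lineage member, 0.780, was 0.823 with at least 4 markers and 0.728 with at least 2. Detection over all placed cells, 41.4% for Sox4 and 52.6% for Sox11, was 16.6% and 25.5% when thinned. Without a replicate there is no test. Log2 differences of a single library, taken with an offset of 5 CPM, lay further from edgeR's fit than their spread in 25 of 38 calls. The change of estimator and the loss of a library cannot be told apart there. Tau in single libraries ran from 0.677 to 0.763 for Sox11 and from 0.750 to 0.798 for the lowest lineage member. Causes were not tested. With 2 libraries, members with a few UMIs per sum are limited by depth.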

Other observations

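The cells that no gate placed were not empty of these genes. In replicates 1 and 2 they held 231 and 246 CPM of Sox4, 508 and 422 CPM of Sox11, and 71.0 and 75.9 CPM of Sox9. The lineage members stood at 13.1 and 17.1 CPM for Sox2, 6.45 and 5.88 CPM for Sox10, 5.90 and 3.82 CPM for Sox17, 3.13 and 4.27 CPM for Sox18 and 0.738 and 1.47 CPM for Sox7. These cells are a mixture of types at a median of 1050 and 1164 UMIs.

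Further Sox genes were counted but too sparse to test. Over all kept cells Sox13 had 54 and 88 UMIs, Sox21 had 9 and 16, and Sox1, of the group of Sox2, had 5 and 12.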
